A study of Mus musculus with 27 samples.

Results

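The genes described here are the E proteins Tcf3, Tcf4 and Tcf12 and the Id inhibitors Id1, Id2 and Id3, 6 of the 18194 mouse genes measured. They were chosen by name, and every probe set that carries their symbol alone was taken, which gave 19 of 34958 such probe sets: 1 for Id1, 3 for Id2, 1 for Id3, 3 for Tcf3, 6 for Tcf4 and 5 for Tcf12. E proteins are basic helix-loop-helix transcription factors that dimerise and bind E box DNA. Id proteins have the helix-loop-helix but lack the basic region, so a dimer of an Id protein with an E protein does not bind DNA. In the thymus, E proteins drive rearrangement and early T cell genes and hold cells at developmental checkpoints, pre-T cell and T cell receptor signals induce Id3 through Egr factors, and E and Id proteins are known to affect the number and differentiation of Foxp3+ regulatory T cells (Tregs).

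Messenger RNA was measured on 27 Affymetrix arrays of sorted T cells from Balb/c mice, 3 arrays in each of 9 groups. A total of 50 ng of RNA was labelled for each array. Of the thymic groups, 6 were sorted by Foxp3, read through GFP, and by CD24, a surface protein lost as thymocytes mature: Foxp3+GFP+ cells at CD24hi, CD24int and CD24low, and Foxp3-GFP- cells at the same levels, with the last level written CD24lo below. The seventh thymic group was Treg precursors, which the series title gives as CD4 single-positive, Foxp3GFP- and CD25+. The last pair of groups was lymph node Tregs and lymph node naive T cells. No treatment is named for any group. The sample labels give the Foxp3- thymocytes the word Treg too, while the series design calls them conventional T cells, and they are treated as such here. The Foxp3- CD24lo arrays also carried much RNA of innate-like and gamma delta T cell markers, described below, so this group cannot be taken as conventional cells alone. The labels state neither the age or number of the mice, nor the construct of the GFP reporter, nor whether the 3 samples of a group come from different mice. The p-values therefore reflect only how far these samples scatter, which may be technical.

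Values are log2 of the deposited intensity, so 1 unit is a 2-fold step, and the number of arrays limits their precision. Array medians lay between 4.92 and 5.00. Each difference subtracts the group named second from the one named first. It is given ± its standard error in limma, a linear model fitted over all genes, with n = 3 arrays a group. A gene passed when its p, adjusted by Benjamini-Hochberg over the 18194 genes, was under 0.05, and only such genes are said to have risen or fallen. The sort was visible in the arrays: Foxp3 averaged 9.90 to 10.07 in the 4 Foxp3+ groups and 3.80 to 4.17 in the 5 others. Cd3e, a subunit of the T cell receptor complex, was at 10.48 to 11.08 in all 27 arrays. Replicate 3 of Foxp3- CD24hi stood apart through liver RNA, with Alb at 11.65 against at most 4.23 in every other array. Values without it are given below for the differences from this group that passed. In sorted bulk samples, fewer cells of a type and less RNA per cell cannot be told apart.

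Id2 and Id3 carried most of the differences described below, and the 250 bases before their start sites are shown for the E boxes and signal sites they hold. They come from RefSeq (GRCm38.p6), written 5′ to 3′ along the gene, with E boxes (CANNTG, where N is any base) in capitals. The Id2 sequence is chr12:25096093-25096342 on the minus strand and the Id3 sequence chr4:136143572-136143821 on the plus strand.
Id2: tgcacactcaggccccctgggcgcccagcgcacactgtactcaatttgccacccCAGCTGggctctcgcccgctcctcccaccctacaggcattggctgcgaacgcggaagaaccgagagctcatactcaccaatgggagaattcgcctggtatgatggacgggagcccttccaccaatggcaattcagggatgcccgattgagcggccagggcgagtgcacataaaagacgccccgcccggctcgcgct
Id3: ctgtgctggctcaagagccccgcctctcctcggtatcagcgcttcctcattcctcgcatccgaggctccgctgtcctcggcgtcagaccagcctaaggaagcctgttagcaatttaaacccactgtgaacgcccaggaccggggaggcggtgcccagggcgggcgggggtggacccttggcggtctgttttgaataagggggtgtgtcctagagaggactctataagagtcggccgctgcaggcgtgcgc
Both are 62.8% G and C, against a median of 52.4% over 32841 promoters of this length. The Id2 sequence holds 1 E box, CAGCTG, at -196 to -191 from the start, and the Id3 sequence holds 0. On either strand, CANNTG occurs in 66.2% of those promoters, the form CAGCTG in 13% and the form CAGGTG, found in neither gene here, in 17.2%. Egr sites written GCGTGGGCG (0.536% of promoters) and GCGGGGGCG (2.57%) were found in neither, and the BMP SMAD site GGCGCC (9.59%) was found at 1 place in Id2, -231 to -226, and not in Id3. A match is a run of letters and not a shown site, and its absence speaks only of this window.

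Id2, the inhibitor with the widest range among these samples, divided the arrays by Foxp3. It lay between 8.78 and 9.78 (median 9.39) in the 12 arrays of the 4 Foxp3+ groups and between 10.02 and 12.24 (median 10.97) in the 15 arrays of the others. The ranges did not overlap, and no other gene among the 6 divided the arrays this way. How many of all genes do so was not counted. Between the 2 groups of a comparison, a lack of overlap was common. It held for 30.4% of all genes at CD24hi (3 of the 6), 25.6% at CD24int (2), 33.5% at CD24lo (3) and 28.7% in lymph node (3). In the other comparisons of 2 groups it held for 8.67% to 30.6% of all genes. The order of Id2 group means from high to low was Foxp3- CD24lo, lymph node naive, Foxp3- CD24int, Foxp3- CD24hi, precursors, lymph node Tregs and then Foxp3+ CD24lo, CD24int and CD24hi. Neighbours overlapped between Foxp3- CD24int, Foxp3- CD24hi and precursors, and between the last 4 groups, while the other neighbours were separate.

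**Figure D1:**
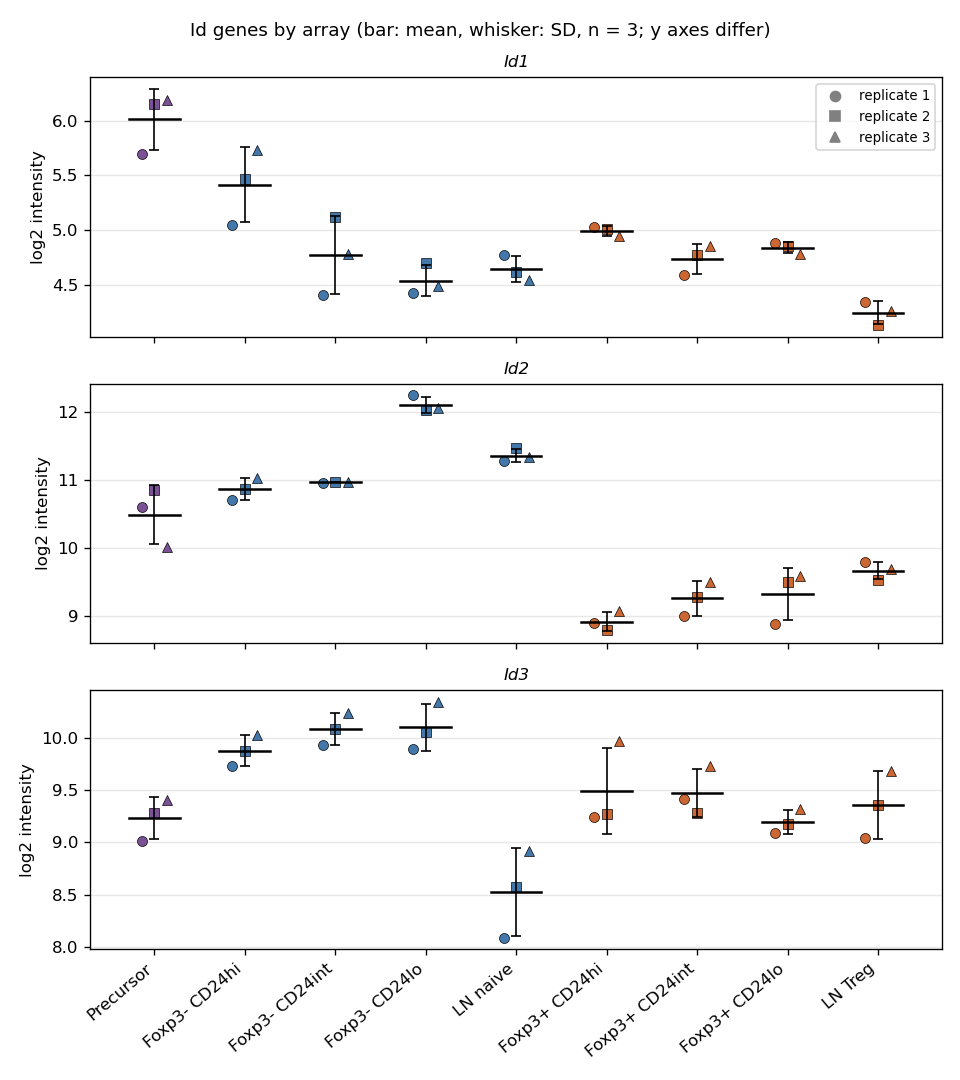
Log2 intensity of Id1, Id2 and Id3 (y axes, which differ) in each of the 27 arrays, by group (x axis), with the shape giving the replicate number, the bar the mean and the whisker the SD of 3 arrays. All 12 Foxp3+ arrays lie at or below 9.78 for Id2 and all 15 others at or above 10.02, and the highest Id1 group is the precursors, at a mean of 6.01.

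At CD24hi, the least mature gate, Id2 read 8.90, 8.78 and 9.07 in the Foxp3+ arrays and 10.70, 10.87 and 11.02 in the Foxp3- arrays. The groups were separate by more than a unit, a 3.85-fold lower level in Foxp3+ cells (-1.95 ± 0.18, adjusted p = 8.61e-09). Without the array that held liver RNA the difference was -1.87. Id2 was the only 1 of the 6 genes that passed at this gate, where 18% of all genes did. Id1 missed the threshold although its groups did not overlap (-0.42 ± 0.16, adjusted p = 0.0809), and Id3, whose groups overlapped, missed it too (-0.38 ± 0.20, adjusted p = 0.229). With a replicate block, which takes the labels' replicate numbers as pairs, both passed, Id1 at an adjusted p of 0.0427 and Id3 at 0.0142. Id1 also passed with quantile normalization (-0.50, adjusted p = 0.0304) and without Foxp3- CD24hi replicate 1 (-0.60, adjusted p = 0.013), and Id3 without Foxp3+ CD24hi replicate 3 (-0.62, adjusted p = 0.0362). The array that held liver RNA gave the highest Foxp3- value of both genes, so both differences are narrower without it. Id1 read 5.05, 5.47 and, in that array, 5.73, and Id3 read 9.73, 9.87 and 10.03.

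At CD24int, Id2 read 8.99, 9.28 and 9.50 in Foxp3+ cells against 10.96, 10.97 and 10.97 in Foxp3- cells. The Foxp3- arrays were nearly level, and the groups were again separate (-1.71 ± 0.18, 3.27-fold, adjusted p = 8.46e-08). At CD24lo the Foxp3+ arrays read 8.87, 9.50 and 9.58 and the Foxp3- arrays 12.24, 12.02 and 12.05. This was the widest gap of the 3 gates, 6.90-fold (-2.79 ± 0.18, adjusted p = 8.25e-12). Id2 and Id3 were the 2 of 6 genes that passed at each of these gates, against 15.3% of all genes at CD24int and 21% at CD24lo. In lymph node the Tregs read 9.78, 9.53 and 9.68 and the naive cells 11.27, 11.46 and 11.33, a 3.23-fold difference in the same direction (-1.69 ± 0.18, adjusted p = 8.98e-08). Here too 2 of 6 genes passed, Id2 and Id3, against 12.4% of all genes.

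The difference in Id2 was tested between gates. It was larger at CD24lo than at CD24int by 1.07 log2 units (interaction -1.07 ± 0.25, adjusted p = 0.00925), and Id2 was the 1 of 6 genes that passed this interaction, against 4.97% of all genes. Between CD24int and CD24hi it was 0.24 ± 0.25 (adjusted p = 0.767). No gene of the 6 passed that interaction in limma, 0 of them even at an unadjusted p under 0.05, and 1.54% of all genes passed. Between lymph node and CD24int it was 0.02 ± 0.25 (adjusted p = 0.99).

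**Figure D2:**
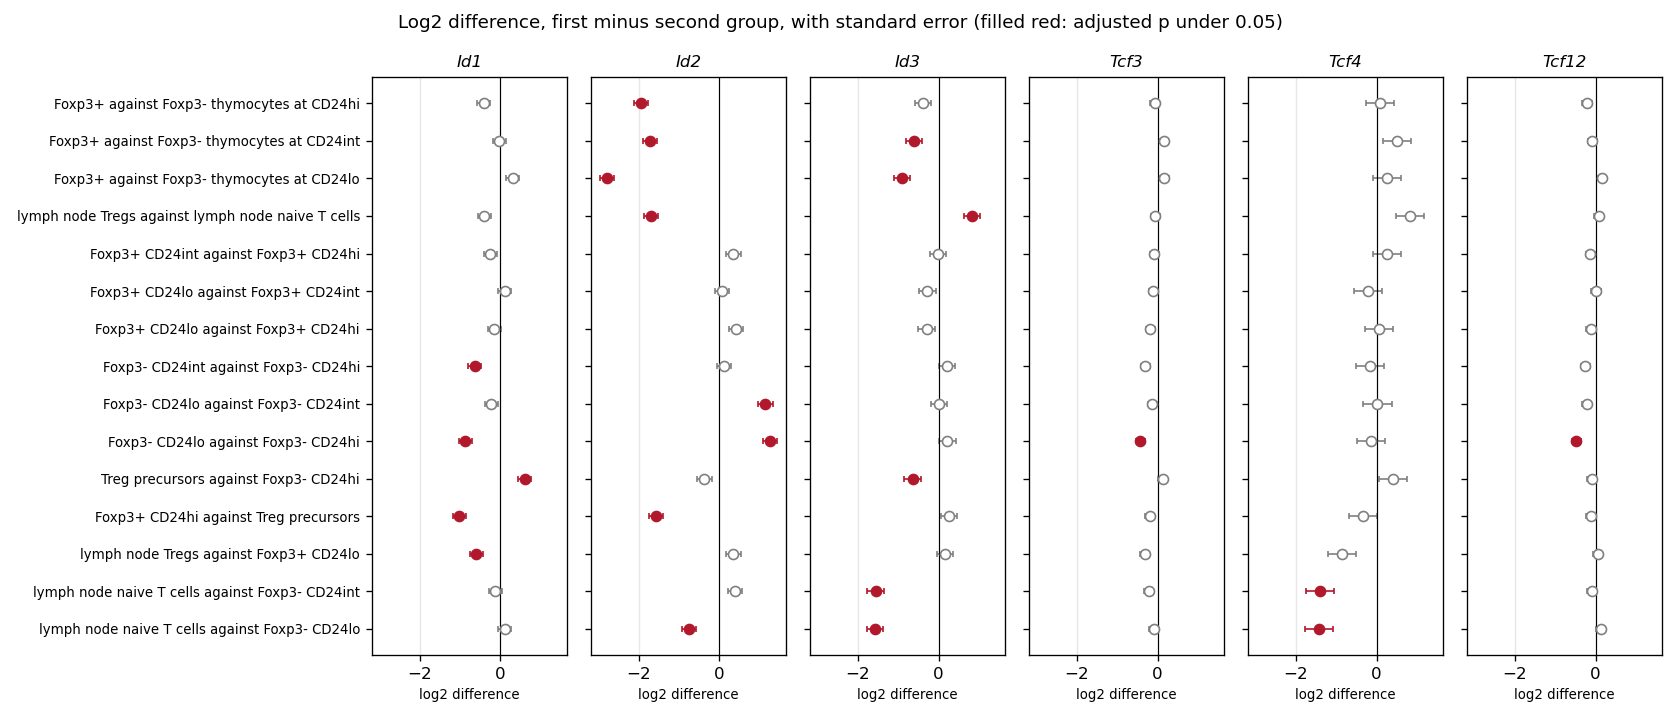
Log2 difference (x axis, first named group minus second, with its standard error) of each of the 6 genes in 15 comparisons of 2 groups (rows), filled red where the adjusted p was under 0.05. Id2 is lower in Foxp3+ cells in all 4 Foxp3 comparisons, by 1.69 to 2.79 units, while Id3 is lower at CD24int and CD24lo and higher in lymph node Tregs, and Tcf3, Tcf4 and Tcf12 pass in none of these 4.

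Along the CD24 gates Id2 changed in Foxp3- cells. It rose from CD24int to CD24lo (1.14 ± 0.18, 2.20-fold, adjusted p = 4.43e-05), the 1 of 6 genes that passed against 12% of all genes, and it differed little between CD24hi and CD24int (0.11 ± 0.18, adjusted p = 0.865). From CD24hi to CD24lo the rise was 1.24 ± 0.18 (adjusted p = 8.22e-06), and 1.32 without the array that held liver RNA. In Foxp3+ cells the difference from CD24hi to CD24lo was 0.40 ± 0.18 and did not pass (adjusted p = 0.322). Of the 6 genes, 0 passed in limma in any of the 3 comparisons among Foxp3+ gates, where 0.286% (CD24int against CD24hi), 0.0165% (CD24lo against CD24int) and 3.1% (CD24lo against CD24hi) of all genes did. At an unadjusted p under 0.05 the counts were 0, 0 and 1, the last being Id2.

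The Foxp3- CD24lo arrays, where Id2 was highest, also carried the most marker RNA of other T cell lineages. The summed intensity of 11 natural killer (NK) and innate-like T cell markers was 6691 to 7801 there, against 488.4 to 1021 in Foxp3- CD24int and 260.5 to 363.9 in Foxp3- CD24hi. Of these 11 markers, 10 rose and 1 fell from CD24int to CD24lo, with Il4, a cytokine gene, up by 4.55 ± 0.38 and Zbtb16, which encodes the innate-like T cell factor PLZF, up by 4.00 ± 0.39, while Eomes fell (-0.99 ± 0.18). The sum over 5 gamma delta T cell markers was 13260 to 14840, against at most 4025 in any other array, and 5 of 5 rose, Trgv4 by 4.65 ± 0.41. Maf, which is on this list, averaged 11.66 in lymph node Tregs and 11.51 in Foxp3- CD24lo, so the list does not measure gamma delta cells alone. Over the 9 groups, 5 of the 11 markers divided by Foxp3 in their group means, with all 4 Foxp3+ means below all 5 others. They are named here after their values were seen, and their single arrays were not examined for overlap. Zbtb16 averaged 4.50 to 4.96 in Foxp3+ groups and 5.18 to 10.90 in the others, Klrd1 2.53 to 3.18 and 3.45 to 9.74, and Cxcr6 3.87 to 4.23 and 4.31 to 9.87, with Klrk1 and Il4 likewise. Il2rb and Eomes divided the other way, Il2rb at 10.32 to 10.69 against 5.65 to 9.07.

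By gate, at CD24int 3 of the 11 rose and 5 fell in Foxp3+ cells, among them Klrd1 (-2.83 ± 0.39) and Cxcr6 (-2.21 ± 0.50), while Il2rb (3.53 ± 0.18) and Nkg7 (2.30 ± 0.37) rose. At CD24hi 5 rose and 0 fell, led by Il2rb (4.68 ± 0.18) and Nkg7 (3.59 ± 0.37), and at CD24lo 2 rose and 9 fell. In lymph node Tregs 1 rose and 5 fell. Tregs are known to express Il2rb, so the sum over this list, 2050 to 2597 in the Foxp3+ CD24hi and CD24int arrays, does not measure innate-like cells alone. The part of these markers in the Id2 differences was not tested at any gate.

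**Figure D3:**
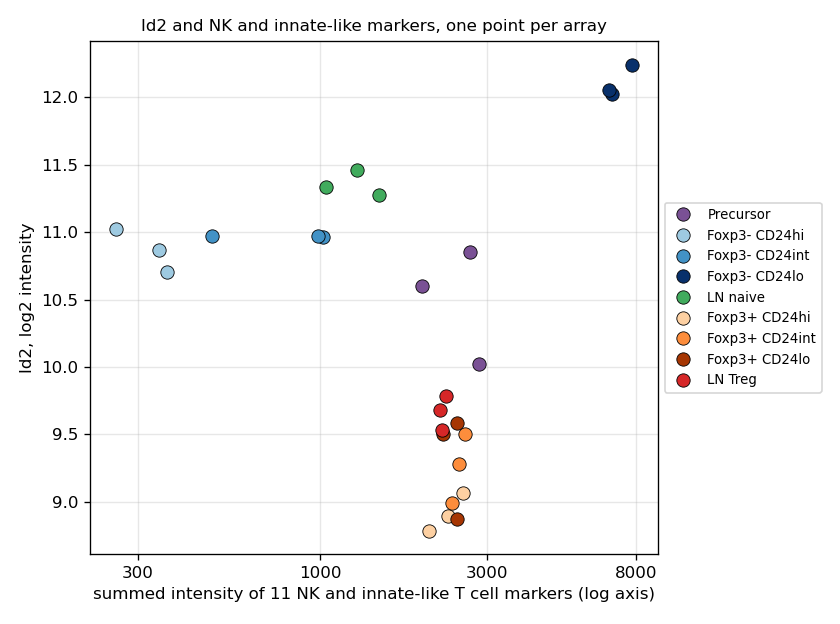
Log2 intensity of Id2 (y axis) against the summed intensity of 11 NK and innate-like T cell markers (x axis, log scale), with 1 point for each of 27 arrays coloured by group. The 3 Foxp3- CD24lo arrays lie apart at upper right, the Foxp3- CD24hi arrays have the lowest sums (260.5 to 363.9), and the sum of the Foxp3+ arrays includes Il2rb at group means of 10.32 to 10.69.

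Between organs, Id2 in lymph node naive cells lay 0.39 ± 0.18 above Foxp3- CD24int (adjusted p = 0.227), with no overlap, and 0.75 ± 0.18 below Foxp3- CD24lo, a fall that passed (-0.75, adjusted p = 0.00404). In lymph node Tregs it lay 0.34 ± 0.18 above Foxp3+ CD24lo and did not pass (adjusted p = 0.383).

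The other probe sets of Id2 differed in the same direction in the 4 Foxp3 comparisons, at different strength. The values above come from the brightest of them. Over the 9 group means, the second Id2 probe set followed it with a Pearson r of 0.99 and the third with 0.93, as a description of probe sets that share the arrays. The second fell in all 4 Foxp3 comparisons, by 1.71 to 3.00 units. The third differed in the same direction in each but passed only at CD24lo (-1.95 ± 0.33, adjusted p = 9.82e-05 over all probe sets). On the third, the single arrays did not divide by Foxp3. Foxp3- CD24hi averaged 6.98 (SD 0.81) and precursors 6.93 (SD 0.53), against 6.92 (SD 0.25) in lymph node Tregs. The order of groups differed too, with the second at 10.28 in Foxp3- CD24int and 10.49 in Foxp3- CD24hi.

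**Figure D4:**
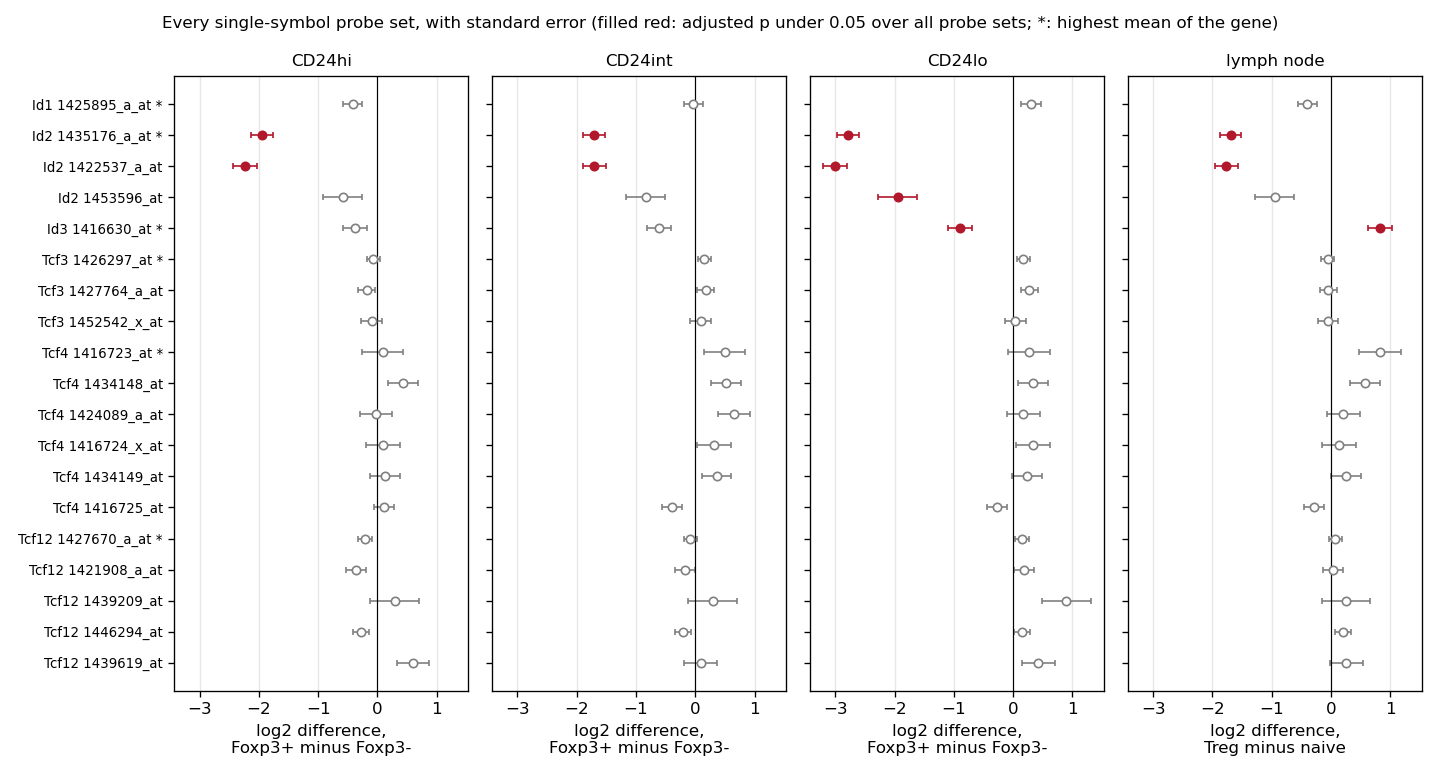
Log2 difference (x axis, with standard error) for each of the 19 probe sets (rows) in the 4 comparisons of Foxp3+ with Foxp3- or naive cells (panels), filled red where the p adjusted over all 34958 probe sets was under 0.05, with a star on the probe set that represents its gene. Only probe sets of Id2 and Id3 are filled.

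Id3, the inhibitor induced by T cell receptor signals, was lower in Foxp3+ cells at CD24int and CD24lo and higher in lymph node Tregs. At CD24int it read 9.41, 9.28 and 9.73 in Foxp3+ cells and 9.93, 10.08 and 10.24 in Foxp3- cells, separate by a small margin (-0.61 ± 0.20, adjusted p = 0.0414). That call was lost without Foxp3+ replicate 1 (-0.58, adjusted p = 0.112) or 2 (-0.51, adjusted p = 0.167), without Foxp3- replicate 2 (-0.61, adjusted p = 0.0957) or 3 (-0.53, adjusted p = 0.148), and with the p adjusted over every probe set (0.0532). At CD24lo the values were 9.09, 9.18 and 9.32 against 9.89, 10.06 and 10.34. These did not overlap, and Id3 fell 1.87-fold (-0.90 ± 0.20, adjusted p = 0.00151). The Foxp3- CD24lo arrays also carried the most innate-like and gamma delta marker RNA, whose part in this fall was not tested.

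Id3 read 9.04, 9.36 and 9.69 in Tregs and 8.09, 8.57 and 8.92 in naive cells, 1.78-fold higher in Tregs without overlap (0.83 ± 0.20, adjusted p = 0.0053). Without naive replicate 1 the difference was 0.61 (adjusted p = 0.0654) and without Treg replicate 3 it was 0.67 (adjusted p = 0.053). Both fits left the samples unpaired, although the replicate numbers paired them in this comparison (r of 0.25 to 0.44 over all genes). The change of direction was tested: the lymph node difference exceeded that at CD24int by 1.44 ± 0.29 log2 units (adjusted p = 0.00298), and Id3 was the 1 of 6 genes to pass this interaction, against 3.63% of all genes. These comparisons share no arrays.

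The naive cells were the group with the lowest Id3. They lay 1.56 ± 0.20 below Foxp3- CD24int (2.94-fold, adjusted p = 7.49e-06) and 1.57 ± 0.20 below Foxp3- CD24lo (2.97-fold, adjusted p = 2.71e-06), while lymph node Tregs stood 0.17 ± 0.20 from Foxp3+ CD24lo (adjusted p = 0.834). Against Foxp3- CD24lo, 9 of 11 NK and innate-like markers and 5 of 5 gamma delta markers fell in naive cells too, and against CD24int 0 and 1 did. Their part was not tested. All other neighbours in the order of Id3 group means overlapped. Id3 did not pass between Foxp3- gates, where it differed by 0.21 ± 0.20 from CD24hi to CD24int and by 0.01 ± 0.20 from CD24int to CD24lo.

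Id3 also moved with the replicate number. Replicate 3 lay above its group mean in 9 of 9 groups, by 0.25 on average, and replicate 1 in 0 of 9. What the number marks is not given in the labels.

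Id1, known as a target of BMP signals, lay close to the array median in most groups. Its highest values were in the precursors, at 5.69, 6.15 and 6.19, and in Foxp3- CD24hi cells, at 5.05, 5.47 and 5.73. Every other group lay between 4.14 and 5.13. Id1 fell from Foxp3- CD24hi to CD24int (-0.64 ± 0.16, adjusted p = 0.0178), the 1 of 6 genes that passed against 5.01% of all genes. This call was lost in a fit of the compared groups alone (adjusted p = 0.196), and without CD24int replicate 1 (-0.46, adjusted p = 0.148), CD24hi replicate 2 (-0.62, adjusted p = 0.0643) or CD24hi replicate 3, the array that held liver RNA (-0.48, adjusted p = 0.148). From CD24hi to CD24lo it fell 1.83-fold without overlap (-0.87 ± 0.16, adjusted p = 0.000264, and -0.71 without that array). Double-positive thymocyte markers fell in 6 of 9 between the same groups, and NK and innate-like markers rose in 10 of 11, and their part was not tested. In lymph node Tregs, at 4.35, 4.14 and 4.26, it was lowest of all groups and fell against Foxp3+ CD24lo (-0.59 ± 0.16, adjusted p = 0.0281), the 1 of 6 genes that passed against 5.93% of all genes. Such values are near the floor: Foxp3 averaged 3.80 to 4.17 in the groups not sorted as Foxp3+.

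That last call rested on the full set of arrays. With 16 added before log2 the adjusted p was 0.0723. It was 0.0974, 0.0823 and 0.0628 without Foxp3+ CD24lo replicates 1, 2 and 3 (-0.57, -0.58 and -0.62), and 0.117 and 0.0724 without lymph node Treg replicates 2 and 3 (-0.54 and -0.60). In the order of Id1 group means, the neighbours from Foxp3+ CD24lo down to Foxp3- CD24lo overlapped.

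The precursors, Foxp3- CD25+ cells, had Id2 above every Foxp3+ array on its brightest probe set. Id2 read 10.60, 10.85 and 10.02 there, overlapping Foxp3- CD24hi (-0.37 ± 0.18, adjusted p = 0.254), although the second Id2 probe set passed (-0.68 ± 0.20, adjusted p = 0.0326 over all probe sets). Foxp3+ CD24hi cells lay 2.98-fold below the precursors without overlap (-1.57 ± 0.18, adjusted p = 6.3e-07). Id1 fell in the same comparison (-1.01 ± 0.16, 2.02-fold, adjusted p = 7.33e-05), so 2 of 6 genes passed against 16% of all genes. Id3 differed by 0.26 ± 0.20 (adjusted p = 0.48). In that comparison 6 of 11 NK and innate-like markers, 5 of 5 gamma delta markers and 6 of 9 double-positive markers fell as well, and their part was not tested.

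Against Foxp3- CD24hi, the precursors had more Id1 (0.60 ± 0.16, adjusted p = 0.0184) and less Id3 (-0.64 ± 0.20, adjusted p = 0.0462), 2 of 6 genes against 9.11% of all genes. Both calls were fragile in fits that left the samples unpaired. The replicate numbers paired the samples in this comparison (r of 0.29 to 0.49 over all genes), and the replicate block left the count at 2 of 6. By number, Id3 read 9.01, 9.28 and 9.41 in precursors and 9.73, 9.87 and 10.03 in Foxp3- CD24hi. For Id1 the adjusted p was 0.0581 with quantile normalization (0.49) and 0.157 with the compared groups alone. It was 0.0921 and 0.109 without precursor replicates 2 and 3 (0.53 and 0.51), 0.16 without Foxp3- CD24hi replicate 1 (0.41) and 0.00486 without the array that held liver RNA (0.75). For Id3 it was 0.0612 over every probe set and 0.0522 with 16 added before log2 (-0.63). Leaving out precursor replicates 1, 2 and 3 gave -0.53, -0.67 and -0.73 for Id3 (adjusted p = 0.18, 0.0909 and 0.0542), and leaving out Foxp3- CD24hi replicates 1, 2 and 3 gave -0.72, -0.64 and -0.57 (adjusted p = 0.0576, 0.106 and 0.159). Markers of double-positive thymocytes, an earlier stage, were also highest in the precursors, with a sum over 9 genes of 2061 to 3797 against 1881 to 1997 in Foxp3- CD24hi and 1458 to 1536 in Foxp3+ CD24hi. Of these 9, 5 rose and 0 fell against Foxp3- CD24hi, Rag1 by 2.21 ± 0.25. Innate-like and gamma delta markers rose with them: 8 of 11 NK and innate-like markers, led by Xcl1 (4.20 ± 0.46) and Cxcr6 (3.99 ± 0.50), and 4 of 5 gamma delta markers, led by Maf (2.89 ± 0.43) and Trgv4 (2.15 ± 0.41). The NK and innate-like sum was 1958 to 2853 in precursors against 260.5 to 363.9. The part of all these markers in the Id1, Id2 and Id3 values was not tested.

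The E protein genes varied less than Id2, and none passed between Foxp3+ cells and their counterparts. Tcf3, which encodes E12 and E47, stood between 8.95 and 9.84 in all arrays. Its group means ran from 9.75 in precursors down through the gates to 9.04 in lymph node Tregs, and every pair of neighbours in that order overlapped. Between Foxp3+ and Foxp3- cells it differed by -0.07 ± 0.11 at CD24hi, 0.15 ± 0.11 at CD24int, 0.17 ± 0.11 at CD24lo and -0.06 ± 0.11 in lymph node (adjusted p = 0.354 or more).

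Tcf3 fell from CD24hi to CD24lo in Foxp3- cells. It read 9.76, 9.53 and 9.57 at CD24hi and 9.28, 9.11 and 9.19 at CD24lo, with no overlap (-0.43 ± 0.11, 1.34-fold, adjusted p = 0.00715). Without CD24hi replicate 1 the adjusted p was 0.0527 (-0.36), and without the array that held liver RNA it was 0.0158 (-0.45). Tcf3 was higher in replicate 1 than its group mean in 9 of 9 groups, by 0.11 on average. Under the replicate block, the step from CD24hi to CD24int also passed (-0.30, adjusted p = 0.0126, against 0.148 without the block), and so did lymph node Tregs against Foxp3+ CD24lo (-0.32, adjusted p = 0.00704, against 0.101).

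Tcf12, which encodes HEB, the partner of E2A in thymocytes, had the narrowest spread, with group means from 10.37 to 10.85. It read 10.99, 10.75 and 10.81 in Foxp3- CD24hi and 10.25, 10.44 and 10.41 in Foxp3- CD24lo, which were separate (-0.48 ± 0.11, 1.40-fold, adjusted p = 0.00264, and -0.50 without the array that held liver RNA). With Id1, Id2 and Tcf3 this made 4 of 6 genes that passed from CD24hi to CD24lo in Foxp3- cells, against 16.7% of all genes. Between the same arrays the NK and innate-like sum went from 260.5 to 363.9 up to 6691 to 7801 and the gamma delta sum from 286.2 to 375.1 up to 13260 to 14840, while the double-positive sum went from 1881 to 1997 down to 800.2 to 957.6. The part of these markers in the falls of Tcf3 and Tcf12 and in the other 2 calls was not tested. Only Foxp3- CD24lo, the lowest group, was separate from its neighbour in the order. Between Foxp3+ and Foxp3- or naive cells Tcf12 differed by -0.21 ± 0.11, -0.08 ± 0.11, 0.15 ± 0.11 and 0.07 ± 0.11 at CD24hi, CD24int, CD24lo and in lymph node (adjusted p = 0.229 or more).

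**Figure D5:**
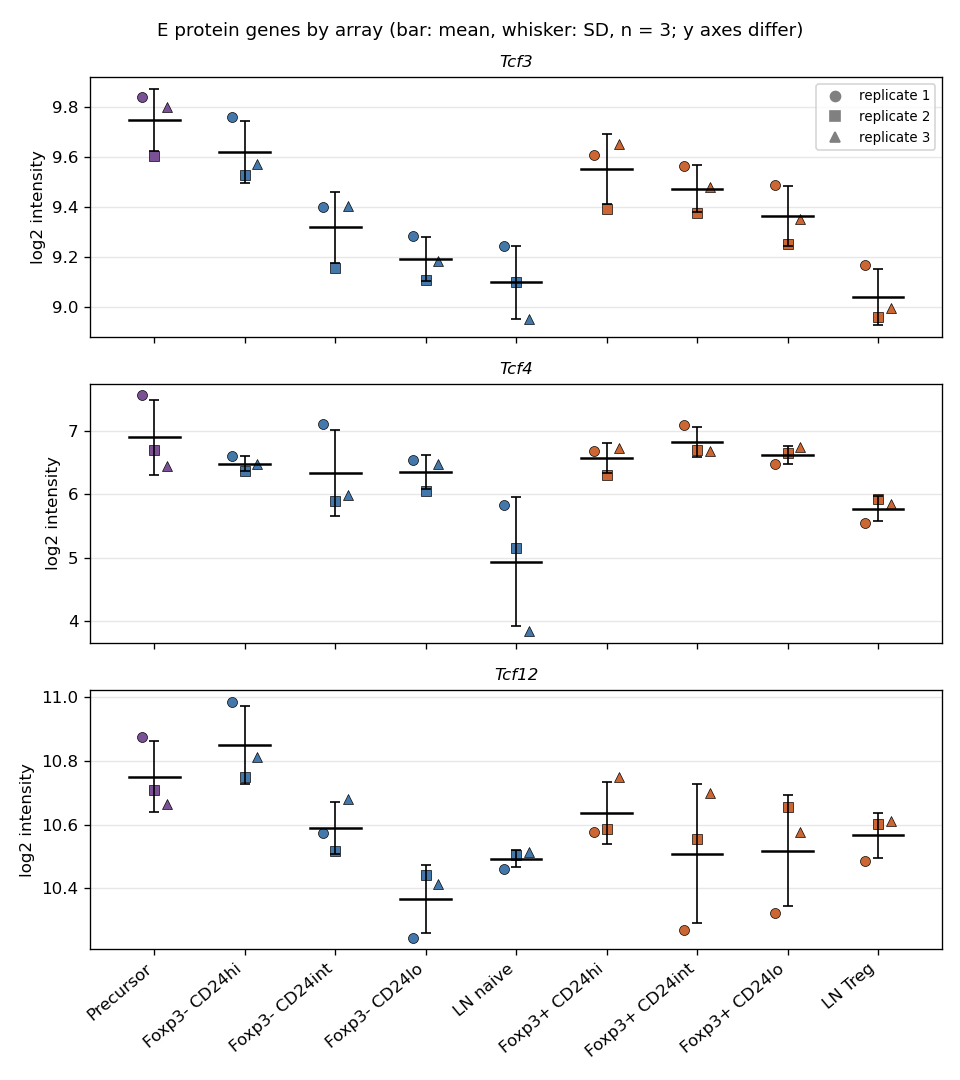
Log2 intensity of Tcf3, Tcf4 and Tcf12 (y axes, which differ) in each of the 27 arrays, by group (x axis), with the shape giving the replicate number, the bar the mean and the whisker the SD of 3 arrays. Tcf3 and Tcf12 span less than a unit over all arrays, and Tcf4 is lowest and most scattered in lymph node naive cells, from 3.84 to 5.82.

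Tcf4, which encodes E2-2, the E protein best known from plasmacytoid dendritic cells, differed by organ. It lay between 5.89 and 7.56 in the 21 thymic arrays and between 3.84 and 5.92 in the 6 lymph node arrays, ranges that touched only at their ends. Naive cells, at 5.82, 5.15 and 3.84, were the lowest and most scattered group. They lay 1.39 ± 0.35 below Foxp3- CD24int (2.62-fold, adjusted p = 0.0102) and 1.41 ± 0.35 below Foxp3- CD24lo (2.66-fold, adjusted p = 0.00522), in each case without overlap. With Id3, this made 2 of 6 genes against 8.56% of all genes in the first comparison, and with Id2 and Id3 3 of 6 against 14.6% in the second.

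Single naive arrays decided much of this. Without naive replicate 3 the differences of Tcf4 were -0.84 (adjusted p = 0.111) and -0.86 (adjusted p = 0.0661), and without Foxp3- CD24int replicate 1 the first missed the threshold (adjusted p = 0.0971). With the compared groups alone its adjusted p was 0.085. Lymph node Tregs read 5.55, 5.92 and 5.84, all below the Foxp3+ CD24lo arrays at 6.47, 6.65 and 6.74, but the difference did not pass (-0.85 ± 0.35, adjusted p = 0.199). It passed with the mean of all probe sets (-0.75, adjusted p = 0.0245) and with the compared groups alone (adjusted p = 0.00361). Between lymph node Tregs and naive cells Tcf4 differed by 0.83 ± 0.35 (adjusted p = 0.142), and by 1.27 without naive replicate 1 (adjusted p = 0.0135).

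Beside Tcf4, markers of other cells moved between organs. Of 10 plasmacytoid dendritic cell markers, 0 rose and 4 fell in naive cells against Foxp3- CD24int, and 0 rose and 6 fell against Foxp3- CD24lo. Their sum was 1313 to 1523 in naive cells, 1646 to 1946 in lymph node Tregs and 2321 to 8815 in the thymic groups. The list includes Ccr9, which thymocytes express too, at means of 12.55 in Foxp3- CD24hi, 10.39 in Foxp3- CD24int and 8.03 in naive cells. Siglech, a defining marker, did not follow the organs: it averaged 5.69 in naive cells, 5.00 to 5.17 in the 3 Foxp3+ thymic groups and 6.62 in Foxp3- CD24int. B cell markers rose in 4 of 8 and fell in 0 against either thymic group, with sums of 294 to 605.7 in lymph node and 169.4 to 247.2 in thymus. Their part in Tcf4 was not tested.

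The 6 probe sets of Tcf4 did not all follow each other. Of the other 5, 4 tracked the representative with r from 0.94 to 0.98 over the 9 group means, and the fifth, with group means of 2.66 to 3.17, did not (r = -0.43). Another of the 4 fell in naive cells against Foxp3- CD24int (-1.10 ± 0.25, adjusted p = 0.00672) and against Foxp3- CD24lo (-1.25 ± 0.25, adjusted p = 0.00113), both over all probe sets. The other 2 probe sets of Tcf3 had r = 0.99 and 0.97, and the other 4 of Tcf12 ranged from 0.48 to 0.91.

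The genes with the most similar profile over the 9 group means were picked for each gene among those whose means spanned at least 1 log2 unit. For Id1 they were Dntt (r = 0.98), Gsta4, Smo, Arpp21 and Rag1 (0.96), and for Id2 Tusc1 (0.98), Mettl22, Inafm2, Tmem250-ps and Pus7l (0.98). For Id3 they were Gm9706 (0.91), Rsad2, Ttk, 1700025G04Rik and Drosha (0.84), so no gene matched Id3 as closely as those of the other inhibitors. Tcf3 was nearest to Mex3a (0.998), Homer3, Cbx2, Firre and Ptov1 (0.97), Tcf4 to Ppp1r16b (0.99), Tgfb1, Fabp5, Spdl1 and Cux1 (0.94), and Tcf12 to Ldhb (0.95), Qser1, Bex2, L3mbtl3 and Ephb6 (0.91). Among the 6 themselves the highest r was 0.90, between Id1 and Tcf3, and that between Id2 and Tcf3 was -0.27. All these are descriptions over 9 means from shared arrays.

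Genes around these factors were read from 3 lists. Other helix-loop-helix genes and cofactors numbered 19, all measured. Between Foxp3+ and Foxp3- cells 3 rose and 1 fell at CD24hi (21.1% of the list against 18% of all genes, median 0.06 against 0.00). At CD24int 3 rose and 0 fell (15.8% against 15.3%, median -0.11 against -0.01), and in lymph node 2 and 2 (21.1% against 12.4%, median -0.09 against -0.04). The shares at CD24hi and CD24int lie near those of all genes. At CD24lo 2 rose and 5 fell (36.8% against 21%, median -0.01 against -0.01). Bhlhe40, a repressor that binds E boxes, rose in all 4, by 3.53 ± 0.22, 2.83 ± 0.22, 1.87 ± 0.22 and 1.78 ± 0.22, and Kat2b, a histone acetyltransferase, by 0.69 ± 0.21 to 1.12 ± 0.21. Lmo2, an adaptor of E protein complexes, fell at CD24hi (-0.78 ± 0.23) and CD24lo (-0.99 ± 0.23), and Lmo4 fell at CD24lo (-1.08 ± 0.25) and in lymph node (-1.21 ± 0.25).

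Known E protein targets of thymocytes numbered 18, of which 17 were measured, and Id2 and these targets were read in the same comparisons. Between Foxp3+ and Foxp3- cells 5 rose and 5 fell at CD24hi (58.8% of the list against 18% of all genes, median -0.11) and 4 and 3 at CD24int (41.2% against 15.3%, median 0.06). At CD24lo 7 rose and 1 fell (47.1% against 21%, median 0.34), and in lymph node 3 and 1 (23.5% against 12.4%, median -0.03). The recombinase gene Rag1 (-2.57 ± 0.25) and the interleukin-7 receptor gene Il7r (-1.46 ± 0.34) fell most at CD24hi. The cytokine signalling inhibitor gene Socs3 (1.82 ± 0.34) and Gfi1, a transcriptional repressor (1.52 ± 0.13), rose most there. The chemokine receptor gene Cxcr5 led the risers at CD24int (2.35 ± 0.26), CD24lo (3.81 ± 0.26) and in lymph node (2.08 ± 0.26). Il7r fell at CD24lo as well (-1.68 ± 0.34), and Themis, a T cell receptor signalling gene, fell in lymph node Tregs (-1.73 ± 0.12). The list does not say whether E proteins raise or lower each target, and the relation of these counts to Id2 was not tested. The Foxp3- CD24lo arrays carried the most innate-like and gamma delta marker RNA, whose part in the counts was not tested.

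Where Tcf3 and Tcf12 fell, from CD24hi to CD24lo in Foxp3- cells, 1 target rose and 8 fell (52.9% of the list against 16.7% of all genes, median -0.44 against 0.03), led by Rag1 (-3.28 ± 0.25) and Dntt (-2.08 ± 0.31), which encodes terminal transferase. In precursors against Foxp3- CD24hi 10 rose and 2 fell (70.6% against 9.11%, median 0.80 against -0.01), with Rag1 at 2.21 ± 0.25 and Gfi1 at 1.85 ± 0.13. In Foxp3+ CD24hi cells against precursors 1 rose and 5 fell (35.3% against 16%, median -0.30 against 0.02), with Rag1 at -4.78 ± 0.25 and Dntt at -2.37 ± 0.31. The last pair of comparisons shares the precursor arrays, and the double-positive thymocyte markers, of which 5 are among the 17 targets, moved in all 3: 6 of 9 fell, 5 rose and 6 fell. Innate-like and gamma delta markers moved in all 3 too. Their part in the target counts was not tested.

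Genes listed as signals upstream of Id genes numbered 21, of which 19 were measured. They were Egr, BMP, TGF-beta and SMAD genes together with Nr4a1, Ets1, Rasgrp1, Ski and Skil. Between Foxp3+ and Foxp3- cells 6 rose and 5 fell at CD24hi (57.9% of the list against 18% of all genes, median -0.02) and 4 and 2 at CD24int (31.6% against 15.3%, median -0.07). At CD24lo 7 rose and 2 fell (47.4% against 21%, median 0.11), and in lymph node 6 and 3 (47.4% against 12.4%, median -0.01). The TGF-beta receptor gene Tgfbr1 rose in all 4, by 2.24 ± 0.11, 2.36 ± 0.11, 2.61 ± 0.11 and 1.84 ± 0.11. The BMP receptor gene Bmpr2 rose at CD24hi (1.72 ± 0.16), CD24int (1.87 ± 0.16) and in lymph node (2.00 ± 0.16), while Smad1, which carries BMP signals, fell in the same 3 (-0.95 ± 0.11, -0.54 ± 0.11 and -0.77 ± 0.11). Of the Egr genes, which T cell receptor signals induce, Egr1 fell at CD24hi (-0.96 ± 0.16) and Egr3 at CD24lo (-1.32 ± 0.21). Egr2, named after its values were seen, fell at CD24hi (-0.91 ± 0.16) and rose in lymph node Tregs (0.95 ± 0.16).

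Some markers of other cells divided by Foxp3 in their group means, a looser rule than the division of single arrays seen for Id2. The share of all genes that do so was not counted. Of the plasmacytoid list 2 of 10 (Siglech at 5.00 to 5.17 in Foxp3+ groups against 5.44 to 6.77, and Cox6a2), of the gamma delta list 1 of 5 (Trgv1), of the endothelial and stromal list 2 of 11 (Cdh5 and Eng), of the myeloid list 1 of 11 (Flt3) and of the liver list 1 of 6 (Hpx) had all Foxp3+ means below all others. In the B cell, double-positive, thymic epithelium and erythroid lists 0 did. Some gaps were small: the highest Foxp3+ and lowest other means were 3.65 and 3.67 for Hpx, 5.08 and 5.10 for Flt3, and 3.425 and 3.458 for Cdh5. For Id2 they were 9.665 and 10.49. In the 4 Foxp3 comparisons, myeloid and dendritic cell markers had 0 rises of 11 and 0 to 4 falls, thymic epithelium markers 0 or 1 rise of 8 and 0 falls, and erythroid markers 0 changes of 3. Endothelial and stromal markers had 0 or 1 rise and 0 to 2 falls of 11, with Cdh5, an endothelial marker, at group means of 3.30 to 4.54. Liver genes had 0 changes of 6 in these comparisons, with sums of 128.3 to 6528 in Foxp3- CD24hi. The part of these markers in the Id and E protein values was not tested.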

How the data were processed

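The values are intensities of the 45101 probe sets of the Affymetrix mouse array, which the authors made with RMA (background correction, normalization between arrays and summary of probes), per the submitters' processing notes. The deposited intensities are on a linear scale, from 3.55 to 24083, and log2 was taken here without an offset. Of the probe sets, 34958 had 1 gene symbol, 932 several and 9211 none. Of the first, 34754 matched RefSeq by gene ID, with 0 symbols altered. Each of 18194 genes was represented by its probe set with the highest mean. Group means of 27 arrays were fitted with limma 3.58.1 in R 4.3.3, with eBayes and Benjamini-Hochberg adjustment (two-sided), and the script was tested on simulated data.

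The 6 genes, the 13 lists of pathway and marker genes and the 18 comparisons were chosen with earlier results of these data known. From a list, up to 2 risers and 2 fallers with the widest change among those that passed were named. Defining markers of other cells (Alb, Cd3e, Siglech, Cdh5) and the 5 genes of most similar profile were named too. The numbers of the labels were taken to pair samples where every same-numbered pair deviated together (r over 0.1 over all genes), which held in 11 of 18 comparisons and not at CD24int, CD24lo, in naive cells against thymus or in the interactions. Alternatives were the mean of probe sets, every probe set, quantile normalization, an offset of 16, a filter on dim genes, the replicate block, a prior variance trend, the compared groups alone and each array left out. The main fit and every alternative except the replicate block left the samples unpaired. No gene among the 6 was lost to the dim filter.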

Additional observations from a re-analysis of the deposited data

Results flagged for a closer look

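The differences of Id2 and Id3 between Foxp3+ and other cells varied with the sets of cells compared, by a limma test of the change itself. For Id2, the difference of Foxp3+ from Foxp3- thymocytes was wider at CD24lo than at CD24int (-1.07 ± 0.25 log2 units, adjusted p = 0.00925). All 3 Foxp3- CD24lo arrays lay above every other array, from 12.02 to 12.24. They also held the highest sums of NK and innate-like markers (6691 to 7801) and gamma delta markers (13260 to 14840), whose part was not tested. For Id3, the difference of lymph node Tregs from naive cells lay above that of Foxp3+ from Foxp3- thymocytes at CD24int (1.44 ± 0.29, adjusted p = 0.00298), and the directions were opposite.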

How the results depend on the processing

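Of the 1620 differences recomputed for the 6 genes, 1574 stayed on their side of the threshold, 35 lost the call and 11 gained it. The sign changed in 50, spread over 22 differences, 39 of them on leaving out an array and 11 with the mean of probe sets or quantile normalization. None of these 50 passed as reported or in the alternative (adjusted p at least 0.229 and 0.711), so no called difference turned. Among them, Tcf12 at CD24hi was 0.01 with the mean of probe sets, against -0.21. Of 25 calls, 16 held in every alternative, among them all calls of Id2. At CD24hi, where 1 gene passed, 2 did with quantile normalization and 3 with the replicate block. At CD24int 1 passed instead of 2 with every probe set tested. From Foxp3- CD24hi to CD24int 2 passed with the block and 0 with the compared groups alone, instead of 1. In precursors against Foxp3- CD24hi 1 passed instead of 2 with every probe set, with quantile normalization, with the offset of 16 and with the compared groups alone. In lymph node Tregs against Foxp3+ CD24lo 2 passed instead of 1 with the mean of probe sets, quantile normalization, the block or the compared groups alone, and 0 with the offset. In naive cells against Foxp3- CD24int 1 passed instead of 2 with the compared groups alone. The replicate block, a pairing by number, changed no other count. It changed no call in the comparisons where the numbers did not pair the samples. Leaving out arrays gave 1 to 2 genes at CD24hi, CD24int and in lymph node, 0 to 1 from Foxp3- CD24hi to CD24int, 3 to 4 from Foxp3- CD24hi to CD24lo, 0 to 1 in precursors against Foxp3- CD24hi, 0 to 1 in lymph node Tregs against Foxp3+ CD24lo, 1 to 2 in naive cells against Foxp3- CD24int and 2 to 3 against Foxp3- CD24lo, and no change elsewhere. The cause of these changes was not tested. Id1 lay near the array median, and 6732 of 18194 genes had no group mean above 5 log2 units.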
